A study of Mus musculus with 3 samples.

Results

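Bcl6, Tox and 8 further genes of the follicular helper T cell programme are described here in effector memory CD4 T cells of the mouse. The 10 genes, Bcl6, Cxcr5, Tox, Tox2, Maf, Il21, Ascl2, Pou2af1, Izumo1r and Cd200, were named as a list and found by their GENCODE M21 symbols among 55536 annotated genes, and all 10 matched. Expression values did not enter the rule. RNA with polyA tails was sequenced from cells of 1 male mouse of strain B6.SJL-Ptprca Pepcb/BoyJ aged 5 months, with no treatment given in the labels. The labels give 1 biosample with technical replicates 1, 2 and 3, called libraries 1, 2 and 3 here. They form a single group, so no conditions could be compared, and each SD measures only the spread between libraries of 1 mouse. Each p-value sets differences between those libraries against counting error only. No source used here gives the sorting gate.

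Follicular helper T cells are CD4 T cells that enter B cell follicles and help germinal centre B cells make high-affinity antibody. The repressor Bcl6 is their defining transcription factor, and it and Prdm1, which encodes Blimp-1, repress each other. Signals through Icos, the IL-6 receptor and the IL-21 receptor favour Bcl6, while IL-2 acting through Stat5 favours Prdm1. Memory CD4 T cells with lower amounts of these products persist after a response, and bulk RNA cannot tell fewer cells of a type from less RNA per cell.

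Rounded expected counts summed to 17474991, 15303615 and 16882311 in libraries 1, 2 and 3. T cell markers were present throughout, with 10 of 10 detected and Cd4 at 444.5 ± 153 TPM (mean ± SD, n = 3), and 10 of 10 effector memory markers were detected. Detected means a TPM, the length-scaled share of a library's transcripts, of at least 1 in every library. Library 1 stood apart from the others: 18.4% of 13177 tested genes were at least 1.5-fold higher in it and 28.0% at least 1.5-fold lower. Of the 10 T cell markers 2 were higher and 3 lower there, with Cd4 (268.67, 541.40 and 523.43 TPM) among the lower. Of the 10 effector memory markers 1 was higher and 4 lower, with Cd44 (56.29, 149.99 and 140.79 TPM) among the lower. Library 2 and library 3 differed beyond counting error in 16.7% of 12468 genes.

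Of the 10 genes, 9 were detected in every library and only Ascl2 was not. By the same rule 21.1% of all annotated genes and 44.9% of 22028 protein-coding genes were detected. The median of the 10 mean levels, undetected Ascl2 included, was 29.0 TPM. Over the 9900 detected protein-coding genes, a set without undetected genes, the median was 28.87 TPM. The middle of the 9 detected genes, Tox2, was at 39.8 TPM. Izumo1r was the most abundant, followed by Cxcr5, Bcl6 and Tox, then Tox2, and then Maf, Cd200, Il21 and Pou2af1. The library ranges of Cxcr5 and Bcl6, Bcl6 and Tox, Maf and Cd200, and Cd200 and Il21 overlapped. Within each library, though, Cxcr5 was above Bcl6 and Cd200 above Il21 in 3 of 3, while Bcl6 was above Tox and Maf above Cd200 in 2 of 3. The 5 other neighbouring pairs did not overlap.

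**Figure D1:**
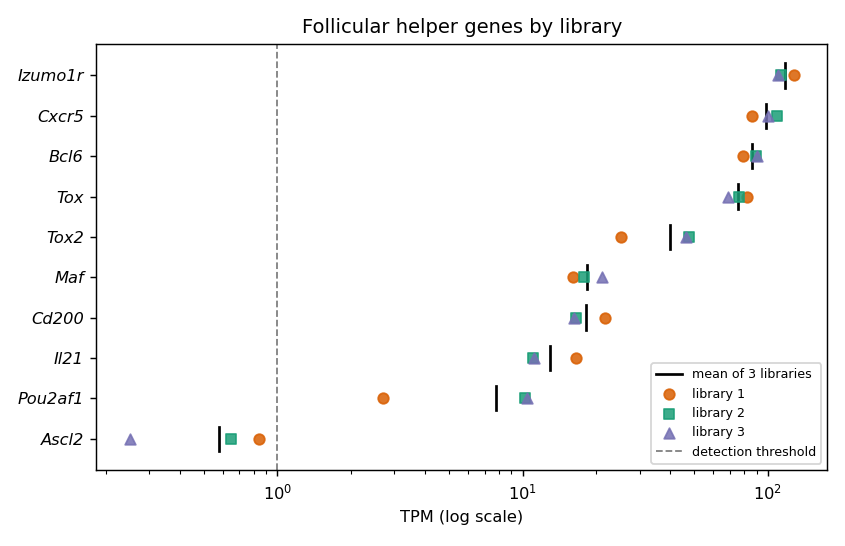
TPM of each gene on a log axis, with 1 point per library, a bar at the mean of the 3 libraries and a dashed line at the detection threshold of 1 TPM. Izumo1r, Cxcr5, Bcl6 and Tox lie between 68.5 and 128 TPM, library 1 is low for Tox2 and Pou2af1, and Ascl2 lies under the threshold in every library.

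Among the transcription factors, Bcl6 (ENSMUSG00000022508.5, GRCm38 chr16:23965052-23988852, minus strand), the zinc finger repressor of the programme, stood at 79.03, 89.51 and 90.63 TPM in libraries 1, 2 and 3. These values gave 86.4 ± 6.40 TPM (SD, n = 3), above 79.3% of detected protein-coding genes. The libraries lay close together, with library 1 lowest. Prdm1, its antagonist, was at 11.0 ± 1.49 TPM, and the ratio of Bcl6 to Prdm1 TPM was 7.79, 7.06 and 9.02.

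Tox (ENSMUSG00000041272.11, chr4:6686353-6991557, minus strand) encodes an HMG-box nuclear factor needed for CD4 T cell development and active in follicular helper and exhausted T cells. It was at 82.15, 75.90 and 68.51 TPM, or 75.5 ± 6.83 TPM. Tox2 (ENSMUSG00000074607.11, chr2:163203125-163324170, plus strand), a paralog that promotes the follicular helper programme together with Bcl6, was at 25.25, 47.81 and 46.39 TPM, or 39.8 ± 12.6 TPM. Library 1 was the highest for Tox and the lowest for Tox2, and the ranges of the paralogs did not overlap. The ratio of Tox to Tox2 TPM was therefore 3.25 in library 1 but 1.59 and 1.48 in libraries 2 and 3. Of the other paralogs, Tox4 was at 126 ± 29.2 TPM and Tox3 at 0.0400 ± 0.0458 TPM.

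Maf (ENSMUSG00000055435.6, chr8:115682942-115707794, minus strand), a basic leucine zipper factor that activates Il21 and Il4, was at 15.98, 17.72 and 21.02 TPM, or 18.2 ± 2.56 TPM. That placed it above 37.7% of detected protein-coding genes, with library 3 highest. The small Maf proteins lack the activation domain of Maf, and their genes Maff, Mafk and Mafg were at 71.1, 69.5 and 35.5 TPM on average.

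Pou2af1 (ENSMUSG00000032053.8, chr9:51213708-51240080, plus strand) encodes the coactivator OCA-B, which binds the octamer factors Oct-1 and Oct-2 and is best known from B cells. It was at 2.70, 10.27 and 10.41 TPM, with library 1 far below the others, and averaged 7.79 ± 4.41 TPM. The octamer factor genes Pou2f1 and Pou2f2 were at 22.7 ± 4.09 and 39.4 ± 20.6 TPM. Of 14 B cell markers only Cd22 was detected, and the summed level of the 14 was 16.81, 31.13 and 27.14 TPM. Cd22 alone gave 12.78, 26.04 and 22.92 TPM of those sums. Of the defining markers, Pax5 was at 0, 0.16 and 0.05 TPM and Ms4a1 at 0.06, 0.25 and 0.38 TPM, both near 0. Cd79a, a chain of the B cell receptor complex, was at 0.66, 1.92 and 1.65 TPM and was lowest in library 1 (log2 ratio -1.38, chi-square adjusted p = 0.0216). By comparison, 28.0% of all tested genes were at least 1.5-fold lower there. Other markers of the list ran the other way. Cd79b was at 0.65, 0.49 and 0.25 TPM and Blk at 0.37, 0.05 and 0.08 TPM, both highest in library 1. The part of B cell RNA in the Pou2af1 level was not tested.

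Ascl2 (ENSMUSG00000009248.6, chr7:142966829-142969264, minus strand), a helix-loop-helix factor that raises Cxcr5, had 14, 9 and 4 counts, or 0.84, 0.65 and 0.25 TPM. Exact Poisson 95% intervals, which cover counting error only, were 0.459 to 1.41, 0.297 to 1.23 and 0.0681 to 0.640 TPM. The intervals of libraries 1 and 2 hold the threshold of 1 TPM and that of library 3 does not. Its partners were far higher, with Tcf3 at 48.2, 86.0 and 70.0 TPM and Tcf12 at 51.8 ± 7.99 TPM.

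Among the surface proteins, Izumo1r (ENSMUSG00000031933.17, chr9:14885814-14903949, minus strand) encodes folate receptor 4, found on follicular helper, anergic and regulatory CD4 T cells and, as Juno, on the egg. It was at 128.05, 113.40 and 110.05 TPM, or 117 ± 9.57 TPM, above 84.7% of detected protein-coding genes. The regulatory T cell factor Foxp3 was at 0.95, 2.70 and 1.23 TPM and was not detected in every library. Of 8 regulatory T cell markers 4 were detected: Il2ra, Ikzf2, Il10 and Nt5e. Il2ra was at 11.73, 14.45 and 16.53 TPM, Ikzf2 at 13.21, 13.93 and 13.31 TPM and Il10 at 1.84, 2.68 and 3.29 TPM. The summed level of those 8 was 103.25, 120.57 and 111.11 TPM, of which Nt5e, an ectoenzyme that conventional T cells also make, gave 73.1, 83.9 and 73.6 TPM. The part of regulatory T cells in the Izumo1r level was not tested. The relatives Folr1 and Folr2 and the sperm ligand Izumo1 were each below 0.1 TPM on average.

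Cxcr5 (ENSMUSG00000047880.15, chr9:44511787-44561877, minus strand) is the chemokine receptor that draws T cells into follicles. It stood at 85.92, 108.65 and 100.35 TPM, or 98.3 ± 11.5 TPM, with library 1 lowest. Its ligand Cxcl13, made by follicular stroma in the mouse, was at 0.42, 0 and 0 TPM. The T zone receptor Ccr7 was higher, at 381 ± 8.18 TPM, and the ratio of Cxcr5 to Ccr7 was 0.226, 0.279 and 0.269.

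Cd200 (ENSMUSG00000022661.14, chr16:45382135-45409053, minus strand), a surface glycoprotein that dampens cells bearing its receptor, was at 21.77, 16.46 and 16.25 TPM, or 18.2 ± 3.13 TPM. Library 1 was above both others. The receptor gene Cd200r1 was at 15.2 ± 2.92 TPM and Cd200r4 at 6.59 ± 0.696 TPM, while Cd200r2 and Cd200r3 averaged 0.0833 and 0.410 TPM.

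Il21 (ENSMUSG00000027718.8, chr3:37222759-37232636, minus strand), the cytokine through which follicular helper cells drive B cell proliferation, was at 16.49, 11.01 and 11.13 TPM, or 12.9 ± 3.13 TPM. Library 1 lay above the others, which nearly coincided. Both chains of its receptor were higher, with Il21r at 593 ± 150 TPM and the shared chain Il2rg at 1903 ± 1198 TPM. Il2 was at 6.94 ± 2.29 TPM and Il4, the other helper cytokine, at 3.17 ± 1.20 TPM.

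Genes listed as favouring follicular helper differentiation were all present: 18 of 18 were detected, with a median of 242 TPM. Ets1, Tcf7 and Icos were the highest, at 1354 ± 111, 1007 ± 312 and 858 ± 130 TPM. Ets1 is a lymphoid transcription factor, and its place on this list is an assumption that was not tested. Tcf7 encodes TCF-1, which acts upstream of Bcl6, and Icos is the costimulatory receptor for B cell contact. Genes that oppose the programme or are repressed in it were detected in 16 of 16 cases with a median of 234 TPM. Selplg, S1pr1 and Klf2 led that list at 831 ± 190, 708 ± 60.9 and 692 ± 254 TPM. Selplg is a selectin ligand, S1pr1 is the egress receptor and Klf2 is the factor that activates it.

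Other surface and effector genes of follicular helper cells were detected in 17 of 18 cases, with a median of 71.6 TPM. Cd40lg, the ligand through which T cells activate B cells, Slamf6, an adhesion receptor, and Tnfsf8, the CD30 ligand, were the highest at 518 ± 142, 323 ± 74.1 and 292 ± 17.1 TPM. Cebpa was the 1 not detected, at 0.09, 2.09 and 2.52 TPM. Corepressors and partners of Bcl6 were detected in 9 of 10 cases, with Ncor1, Ctbp1 and Mta3 highest at 461 ± 275, 236 ± 48.8 and 92.4 ± 21.9 TPM. The exception was the paralog Bcl6b, at 0.133 ± 0.154 TPM. Of the 23 paralogs, binding partners, ligands and receptors, 14 were detected.

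**Figure D2:**
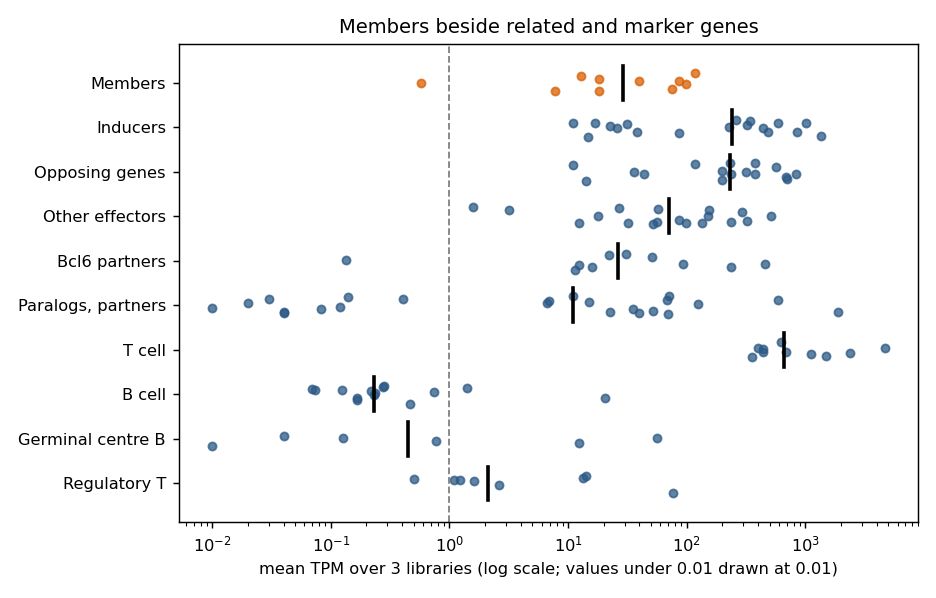
Mean TPM over the 3 libraries on a log axis, with 1 point per gene and a black bar at each list's median; the dashed line marks 1 TPM. The inducing and opposing lists have medians of 242 and 234 TPM and the 10 follicular helper genes 29.0 TPM. Only 1 of the B cell markers reached at least 1 TPM in all 3 libraries.

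Markers of other cells were mostly low. Of 6 germinal centre B cell markers 2 were detected, Neil1 and S1pr2, and S1pr2 is also a follicular helper gene. Rgs13 had no count, which allows up to 0.189, 0.229 and 0.196 TPM at 3 counts per library. Detection held for 3 of 6 plasma cell markers, led by Jchain at 66.0 ± 23.4 TPM, for 3 of 10 dendritic cell and macrophage markers, for 2 of 7 natural killer markers and for 1 of 2 CD8 markers.

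The libraries were next compared gene by gene. A Pearson chi-square test set rounded expected counts against library totals, with Benjamini-Hochberg adjustment over all genes with at least 30 counts. All 9 testable follicular helper genes varied beyond counting error, and so did 75.8% of the 13177 genes tested, so such variation was common to most genes. On the M4 counts Cxcr5 did not pass (chi-square adjusted p = 0.347) and the other 8 did, beside 6994 of 10219 genes tested there. When the statistic was divided by the median overdispersion of all tested genes, 19.9, Tox2 was the 1 of 9 that still varied, beside 2842 of the 13177 genes. Ascl2, with 27 counts, was under the count minimum; with no minimum it was tested and did not pass.

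Pou2af1 and Tox2 were at least 1.5-fold lower in library 1 and Cd200 at least 1.5-fold higher; 28.0% and 18.4% of all tested genes were called in those directions. Pou2af1 had 69, 197 and 240 counts, and library 1 was below the geometric mean of the others by a log2 ratio of -1.78 (chi-square adjusted p = 7.08e-23, counting error only). For Tox2 the counts were 674, 1106 and 1193 and the log2 ratio was -0.89 (chi-square adjusted p = 1.85e-44). Cd200 had 402, 207 and 202 counts and a log2 ratio of 0.85 (chi-square adjusted p = 1.73e-16). In each of the 3 genes libraries 2 and 3 lay close together and library 1 lay outside them.

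On TPM, which also scales by the transcripts assigned, the log2 ratio of Cd200 fell to 0.41 and was no longer past 1.5-fold. From counts, the log2 ratios of the 6 other tested genes were under 1.5-fold: 0.50 for Il21, 0.34 for Tox, 0.27 for Izumo1r, -0.15 for Bcl6, -0.22 for Cxcr5 and -0.34 for Maf. Ascl2, under the count minimum, had a log2 ratio of 1.10.

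**Figure D3:**
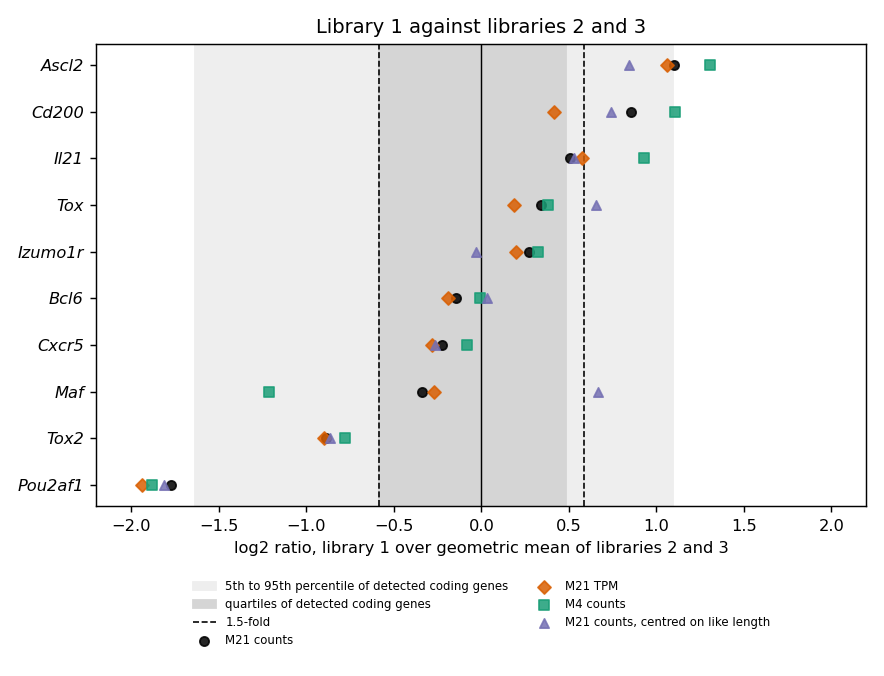
Log2 ratio of library 1 to the geometric mean of libraries 2 and 3 for each gene, from M21 counts, M21 TPM, M4 counts and M21 counts centred on genes of like transcript length. Grey bands give the quartiles and the 5th to 95th percentiles of 9895 detected protein-coding genes from M21 counts, and dashed lines mark 1.5-fold. Pou2af1 and Tox2 are at least 1.5-fold lower on all 4 measures, and Maf changes side when centred on the length of its transcript Maf-202.

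Transcript length and GC content moved with library 1 across 9895 detected protein-coding genes. The median log2 ratio of library 1 was 0.18, 0.29, 0.13, -0.11 and -0.56 over 5 equal groups of genes from shortest to longest, a Spearman rho of -0.32 over genes, which share libraries and are not replicates. By GC content it went from 0.10 in the lowest of 5 groups to -0.18 in the highest, with a rho of -0.13. Relative to the median of genes in the same narrow length bin, Pou2af1 stood at -1.81, Tox2 at -0.86 and Cd200 at 0.74, close to their uncentred values. Within bins of GC content they stood at -1.84, -0.83 and 0.74. Maf was binned by its transcript Maf-202 of 6360 bases and went from -0.34 to 0.67 there. Its other transcript, Maf-201 of 3223 bases, held the larger share of TPM in library 1. Centring on that shorter length was not done. Tox went from 0.34 to 0.65, past 1.5-fold, and Izumo1r from 0.27 to -0.03.

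Between libraries 2 and 3, Bcl6 and Maf differed beyond counting error, 2 of 9 genes beside 16.7% of all genes tested. Bcl6 was at 181 and 194 CPM (counts scaled to the library total) (chi-square adjusted p = 0.0424) and Maf at 50.6 and 65.9 CPM (chi-square adjusted p = 5.04e-07). The other 7 had adjusted p-values from 0.445 to 0.795. On the M4 counts Bcl6 was at 292 and 321 CPM (chi-square adjusted p = 0.203) and Maf at 16.8 and 22.7 CPM (chi-square adjusted p = 0.362). The direction was the same there on fewer counts, 85 and 120 for Maf, and neither passed.

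The genes of the related lists also varied between the libraries, and their counts are to be read beside the 75.8% of all tested genes that varied, the 18.4% higher and the 28.0% lower in library 1. Among inducing genes 17 of 18 varied, with 2 higher and 5 lower in library 1, and the log2 ratios of the lower ones, with Tcf7 at -0.83, ran from -0.62 for Il21r to -4.14. Among opposing genes 15 of 16 varied, with 1 higher, Selplg (0.60), and 6 lower. Of the other effector genes 17 of 18 varied, with 2 higher and 7 lower, Cd40lg (-0.72) and Cebpa (-4.84) among the lower. All 9 tested Bcl6 partners varied, with 1 higher in library 1, Ncor1 (1.16), and 2 lower. Among the 14 tested paralogs and partners 13 varied, with Il2rg higher and 7 lower, Pou2f2 (-1.39) and Pou2f1 (-0.74) among them.

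The 10 genes have 41 annotated transcripts, of which 29 carried counts and 18 had a mean share of at least 10% of their gene's TPM. In 8 genes the same transcript led in every library, and in Maf and Cd200 it did not. Bcl6-201 held 96.2% ± 1.48 (SD, n = 3), Cxcr5-201 89.8% ± 2.04, Izumo1r-201 83.2% ± 1.55, Tox2-202 83.1% ± 1.38, Il21-201 80.2% ± 4.88, Pou2af1-201 79.6% ± 9.18 and Tox-201 75.7% ± 6.99. Ascl2 was assigned to 1 transcript.

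**Figure D4:**
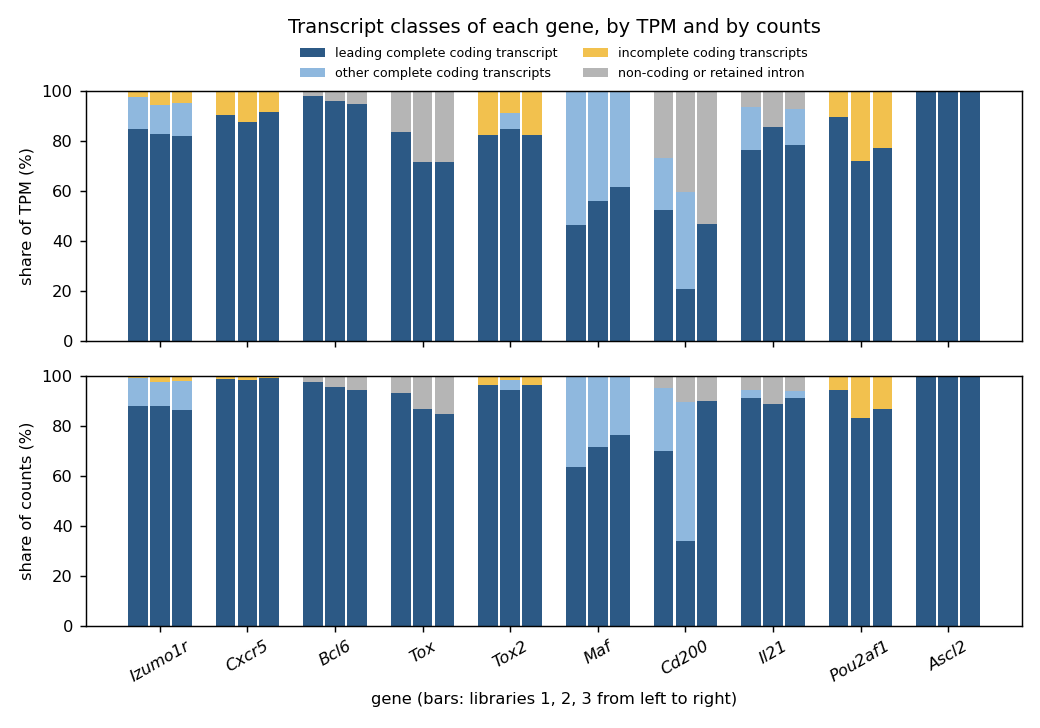
Share of each gene's TPM (top) and of its counts (bottom) by transcript class, with 3 bars per gene for libraries 1, 2 and 3. Classes are the leading complete coding transcript by mean share, other complete coding transcripts, incomplete coding transcripts and non-coding or retained-intron transcripts. Non-coding Cd200 transcripts take up to 53.1% of TPM, and the same transcripts take a much smaller part of the counts.

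Maf had a pair of complete coding transcripts, Maf-201 and Maf-202, with mean shares of 45.3% and 54.7% of its TPM. Maf-201, with 3 exons and 3223 bases, held 53.5%, 44.0% and 38.4%, and Maf-202, with 1 exon and 6360 bases, held 46.5%, 56.0% and 61.6%. The leader thus differed in library 1, while by counts Maf-202 led everywhere at 70.4% ± 6.48. The forms share 1111 coding bases and end differently. Maf-201 splices to a later exon and Maf-202 reads on to a stop codon. The coding ends are shown from GRCm38 (spliced, minus strand), with the last 24 shared bases in lower case and the bases of each form's own end in capitals. They lie within chr8:115693159-115705776.
Maf-202: cttcctctcccgaatttttcatgtGA
Maf-201: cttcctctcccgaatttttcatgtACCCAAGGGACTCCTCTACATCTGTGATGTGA

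Cd200 was the least settled. Cd200-202 held 52.3%, 20.9% and 46.9% of its TPM, Cd200-201 held 21.1%, 38.6% and 0%, and the non-coding Cd200-210 of 281 bases held 21.4%, 27.8% and 53.1%. Of the counts, Cd200-210 took only 2.89%, 4.55% and 10.3%, as a short transcript gains weight per length. Complete coding transcripts alone gave Cd200 11.1 ± 4.34 TPM, beside 18.2 TPM in all. Cd200-201 has no base of its own and Cd200-202 has 60, so few reads can separate the pair. Their coding ends within chr16:45383450-45392304 (minus strand, spliced) are shown in the same way and differ in the bases that encode the cytoplasmic end.
Cd200-202: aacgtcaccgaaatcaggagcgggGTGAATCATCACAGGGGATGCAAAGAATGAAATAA
Cd200-201: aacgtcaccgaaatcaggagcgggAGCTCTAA

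Il21 was read mainly from Il21-201, and Il21-202, which reads into the intron after the shared part, held 17.0%, 0% and 14.6%. By counts Il21-202 held 3.21%, 0% and 2.70%. The forms share 417 coding bases and then part within chr3:37225337-37225472 (minus strand). The first 36 of 72 own bases are shown for Il21-202, and all 24 for Il21-201.
Il21-201: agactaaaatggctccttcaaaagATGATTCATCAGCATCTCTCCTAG
Il21-202: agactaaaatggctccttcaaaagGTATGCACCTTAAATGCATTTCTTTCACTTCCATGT

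Izumo1r-202, at 8.55%, 7.35% and 9.56%, codes for a shorter form than Izumo1r-201, 519 against 735 bases with the stop codon. They share 466 coding bases, and the next 36 bases of each, within chr9:14886309-14900756 (minus strand, spliced), show where they part.
Izumo1r-201: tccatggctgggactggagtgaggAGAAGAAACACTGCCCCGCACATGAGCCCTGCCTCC
Izumo1r-202: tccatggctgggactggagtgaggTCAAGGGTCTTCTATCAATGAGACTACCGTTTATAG

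Tox2 has more than 1 annotated start, and its leading transcript begins at the first. Tox2-202, from the upstream start, held 82.3%, 84.7% and 82.3%, while Tox2-205, from a start further downstream, held 0%, 6.33% and 0%. The incomplete Tox2-204 held 14.8% ± 5.03 of TPM. Neither Tox2-204 nor Tox2-205 has a base of its own, so how much of Tox2 begins downstream was not settled. The first 60 coding bases of the complete forms, at chr2:163203164-163203223 and chr2:163225468-163225527 (plus strand), have the start codon in capitals and encode different beginnings of the protein.
Tox2-202: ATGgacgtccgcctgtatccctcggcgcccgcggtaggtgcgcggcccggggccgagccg
Tox2-205: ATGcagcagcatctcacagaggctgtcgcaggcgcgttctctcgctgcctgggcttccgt

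The 250 bases before each of these starts, from RefSeq promoters on GRCm38.p6, are shown because the starts of the 2 complete transcripts that carried counts differ in them. The dinucleotide CG, which reads the same on both strands, is in capitals. Before the upstream start, at chr2:163202877-163203126, it occurred 27 times, and 8.56% of 32851 promoters held at least as many in their 250 bases. Before the downstream start, at chr2:163225204-163225453, it occurred 5 times, and 55.6% of promoters held at least as many. GC content was 75.2% and 52.8%. RefSeq gives 5 starts for Tox2, and the 2 shown lie nearest the starts of Tox2-202 and Tox2-205. The others, at chr2:163203283, chr2:163204186 and chr2:163225453, had 35, 19 and 5 CG in their 250 bases. RefSeq promoters were found for 7 of the 10 genes.
Tox2 upstream start: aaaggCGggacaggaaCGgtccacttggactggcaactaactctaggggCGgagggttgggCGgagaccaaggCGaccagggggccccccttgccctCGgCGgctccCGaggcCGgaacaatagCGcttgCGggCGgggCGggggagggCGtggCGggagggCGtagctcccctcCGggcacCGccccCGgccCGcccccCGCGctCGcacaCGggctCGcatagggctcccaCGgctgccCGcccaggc
Tox2 downstream start: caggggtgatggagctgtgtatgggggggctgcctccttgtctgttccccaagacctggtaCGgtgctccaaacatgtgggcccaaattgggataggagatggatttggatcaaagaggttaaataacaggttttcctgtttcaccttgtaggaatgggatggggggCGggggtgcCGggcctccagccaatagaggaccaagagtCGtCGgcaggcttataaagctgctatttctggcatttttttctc

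In the remaining genes, shares beyond the leader were small or incomplete. The complete coding Tox-201 left the rest of the Tox TPM to non-coding forms, of which the retained-intron Tox-203 was the largest at 10.4% ± 2.89. Complete coding Tox came to 57.4 ± 10.2 TPM. Cxcr5-205, an incomplete form of 358 bases, held 10.2% of TPM but 1.35% of counts. Pou2af1-202, an incomplete form with 1 base of its own, held 20.4% ± 9.18.

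The older gene table, whole-number counts on GENCODE M4 annotation, gave another view of the same genes. Over 9917 genes with at least 100 counts in both tables, the M4 count was 51.2% of the M21 count in the median, with quartiles of 33.7% and 67.4%. Bcl6, Tox2, Tox, Izumo1r and Cd200 lay within those quartiles, at 52.4%, 50.6%, 45.7%, 61.4% and 36.4%, and Cxcr5 at 33.4% was just under. Ascl2 was at 40.7%, from 6, 3 and 2 M4 counts. Pou2af1 reached 28.5%, Il21 13.2% and Maf 9.24%.

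Maf had 43, 85 and 120 M4 counts beside 796, 775 and 1112 M21 counts. Its log2 ratio of library 1 was then -1.22 in place of -0.34, and that of Il21 was 0.93 in place of 0.50. Tox2 (-0.78), Pou2af1 (-1.88) and Cd200 (1.11) were past 1.5-fold in this table too.

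**Figure D5:**
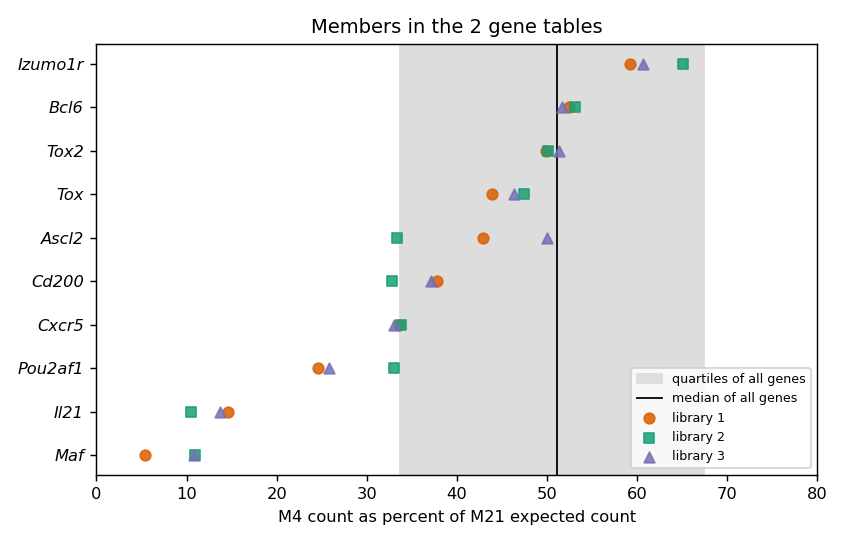
M4 count as a percent of the M21 expected count for each gene, with 1 point per library; the grey band and line give the quartiles (33.7% and 67.4%) and the median (51.2%) over 9917 genes. Maf and Il21 lie under 15% in every library.

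Some of these genes share exon bases with a gene on the opposite strand, and no source used here says whether counting used strand. Cxcr5 shares 110 of 3332 exon bases with Bcl9l, which was at 1.87, 20.04 and 17.92 TPM. Il21 shares 469 bases with Gm12534, Maf 440 with Gm15655, Tox 260 with Gm11802 and Bcl6 21 with Gm37419, and those partners averaged between 0.593 and 3.00 TPM. The part of reads from these partners in the counts was not tested.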

How the data were processed

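Libraries were named by the technical replicate number in the labels. The authors deposited, per the file headers, gene tables with expected counts, TPM and FPKM, and transcript tables with expected counts, TPM and the percent of each gene's expression per transcript, on mm10 with GENCODE M21. A headerless table of whole-number counts on GENCODE M4 was also deposited. No source used here gives the aligner, the quantifier or strand use. The 10 genes and all gene lists were chosen with earlier results of these data known. All 10 genes are named, with the 3 highest genes by mean TPM of each list, undetected genes where 5 or fewer, and paralogs and partners; some genes of these lists are not reported here.

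Expected counts were rounded. Of 81881 rows, the 55536 with an Ensembl gene ID were kept. Detection needed 1 TPM in every library. Pearson's chi-square test compared counts with library totals for genes with at least 30 counts, at a Benjamini-Hochberg adjusted p of 0.05. It was also run on simulated counts with counting error only. Those lack the overdispersion of these data, so that run cannot show how the test behaves on them. A library 1 call also needed 1.5-fold and a value outside both others; zero counts were set to 0.5 for ratios. Intervals were 95% exact Poisson. edgeR 4.0.16 (TMM) and DESeq2 1.42.0 gave scalings in R 4.3.3; scipy 1.17.1, pandas 2.3.3 and numpy 2.4.6 under Python 3.11.15 did the rest. Sequences came from GENCODE M21 and RefSeq. The ratios, the transcripts shown as sequence, the other list and marker genes named, and the length and GC descriptions were chosen after seeing the data.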

Additional observations from a re-analysis of the deposited data

How the results depend on the processing

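FPKM and TMM-scaled CPM per kilobase, which are other scales, gave medians of the 10 genes of 17.4 and 17.4 in place of 29.0. Leaving out 1 library at a time left 2 to 9 of 9 genes varying, and 2079 to 9260 of all genes in place of 9983; the lowest values were those without library 1. Dividing by the median overdispersion left 1 gene, and 2842 of all genes. Between libraries 2 and 3, M4 counts gave 0 of 9 genes in place of 2. For library 1, a 2-fold threshold left 1 gene in place of 3 (0 higher, 1 lower: Pou2af1), and M4 counts and length centring each gave 5. Of the genes higher, TMM, DESeq2 size factors and M4 counts gave 2 (Cd200 and Il21), TPM gave 0, and length centring gave 3 (Cd200, Tox and Maf), in place of 1; Maf turned from -0.34 to 0.67 there. The centred values kept the uncentred p and were not required to lie outside both other libraries. Maf was centred by the length of Maf-202 alone. For library 1, shares of all genes were computed only for totals at 1.5-fold (18.4% higher, 28.0% lower). They were not computed for the other library 1 settings or for libraries 2 and 3 on M4 counts, so those counts have no background beside them. Genes detected and genes with 1 leading transcript stayed within 1.5 times their count in every alternative run. Scaling by totals left the median tested gene at -0.10 (log2) in library 1, TMM and DESeq2 at 0.00. Library 1 with DESeq2, M4 counts and centring, libraries 2 and 3 with TMM and M4 counts, and complete coding transcripts were chosen after seeing the data. No paired analysis was possible because the libraries form 1 group. Depth limits Ascl2, whose 27 counts were under the minimum of 30. With no minimum 9 of 10 genes varied, beside 10666 of 29815 of all genes, and Ascl2 did not. On M4 counts 8 of 9 varied, without Cxcr5, beside 6994 of 10219 of all genes.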
